A study of Mus musculus with 6 samples.

Results

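The 71 genes described here encode proteins of synaptic vesicles and of their docking and fusion, and relatives that serve other membranes. They are the genes of the deposited table whose symbol begins with Syt, Stx, Stxbp, Snap, Vamp, Rims, Cplx or Syngr and a digit, or is Syn1 to Syn3, Sv2a to Sv2c, Unc13a to Unc13d or Syp, and they are 71 of 19251 genes. By role they are 16 synaptotagmins, 15 syntaxins, 7 syntaxin-binding proteins, 4 genes of the SNAP family, 7 VAMP genes, 3 complexins, 4 Munc13 genes (Unc13), 4 RIM genes, 3 synapsins, 3 SV2 genes, 3 synaptogyrins with synaptophysin (4 genes), and Snap91. Snap91 shares only its name prefix with the SNAREs, since it encodes a clathrin assembly protein, and Vamp7-ps is annotated as a processed pseudogene.

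RNA-seq of polyadenylated RNA was done on the substantia nigra of C57BL/6 mice. All mice carried rAAV-A53T-aSynuclein, in which an adeno-associated viral vector delivers the A53T mutant of human alpha-synuclein, so neither group is free of the vector. From 2 weeks after surgery one group ate ad libitum (3 libraries) and the other was fasted for 24 hours on 3 days a week (3 libraries), for 10 weeks, and both were handled alike at cage changes. The labels give neither the age and sex of the mice, nor the promoter of the vector, nor how long after a fast the tissue was taken. Nor do they tie a library to its own animal, and p-values therefore measure only the spread between these libraries, which may be technical.

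Transmitter release rests on SNARE proteins. A VAMP protein on the vesicle zips together with a syntaxin and a SNAP protein on the plasma membrane, and the zipped complex pulls both membranes into fusion. Munc13 proteins help it assemble, complexins hold it ready, synaptotagmins trigger fusion when calcium enters, RIM proteins tie vesicles to calcium channels at the active zone, and synapsins cluster the reserve vesicles. Neurons use Vamp1, Vamp2, Stx1a and Snap25, among others, for this, while Vamp3, Vamp8, Snap23 and Stx4a serve exocytosis and recycling in many cell types, glia and immune cells among them.

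Totals ran from 42990234 to 48179706 estimated counts per library, of which the 71 genes took between 1.36% and 1.63%. The markers of dopaminergic neurons, the cells that define the substantia nigra, were present in every library, with the dopamine transporter gene Slc6a3 at 247, 240 and 653 CPM (counts scaled to library size with TMM factors) in ad libitum replicates 1, 2 and 3 and at 222, 403 and 180 CPM in fasting replicates 1, 2 and 3. Ad libitum replicate 2 stood apart. The cholinergic gene Chat was at 22.9 CPM there against at most 2.14 CPM elsewhere, and the hypothalamic gene Pmch was at 432 CPM against at most 125 CPM. The summed level of 9 oligodendrocyte markers was also highest there. It was 13911, 18941 and 13899 CPM ad libitum and 9828, 12310 and 10538 CPM under fasting, so every fasting sum lay below every ad libitum sum. Taken singly, 8 of these 9 markers were lower under fasting with no overlap (88.9%, against 15.0% of all genes). In all 7 microglial markers every fasting library lay below every ad libitum library, 1 of them (C1qa) was called lower, and their summed level was 330, 453 and 420 CPM ad libitum and 261, 265 and 267 CPM under fasting. Pan-neuronal markers, by contrast, had a median log2 fold change of 0.01 over 12 genes and summed levels of 5770, 4693 and 5107 CPM against 5190, 5644 and 5109 CPM, so the groups overlapped. In such tissue RNA, fewer cells of a type and less RNA per cell cannot be told apart.

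The transcripts of the release machinery covered a wide range of levels. To compare genes, CPM were divided by the length of the longest annotated transcript in kilobases (kb). On that scale Cplx1, a complexin, stood at 399 ± 68.1 CPM per kb (SD, n = 6 libraries), Snap25, the neuronal plasma membrane SNARE, at 380 ± 54.2, the vesicle membrane protein gene Syp at 332 ± 39.2, the vesicle SNARE gene Vamp2 at 289 ± 24.3 and the calcium sensor gene Syt1 at 235 ± 39.7. Between neighbours among these 5 genes the ranges of mean ± SD overlapped. Of the 71 genes, 12 exceeded 100 CPM per kb, 46 exceeded 10 and 4 lay at or below 1, these being Vamp5, Syt15, Stx19 and Stx11. The neuronal syntaxin gene Stx1a was at 11.9 ± 2.20 CPM per kb, far below Snap25 and Vamp2. Dividing by the median transcript length instead, chosen after the data were seen, put Syp first at 2036 CPM per kb and Sv2a, a vesicle glycoprotein gene, second at 997, so the order at the top depends on the length used.

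**Figure D1:**
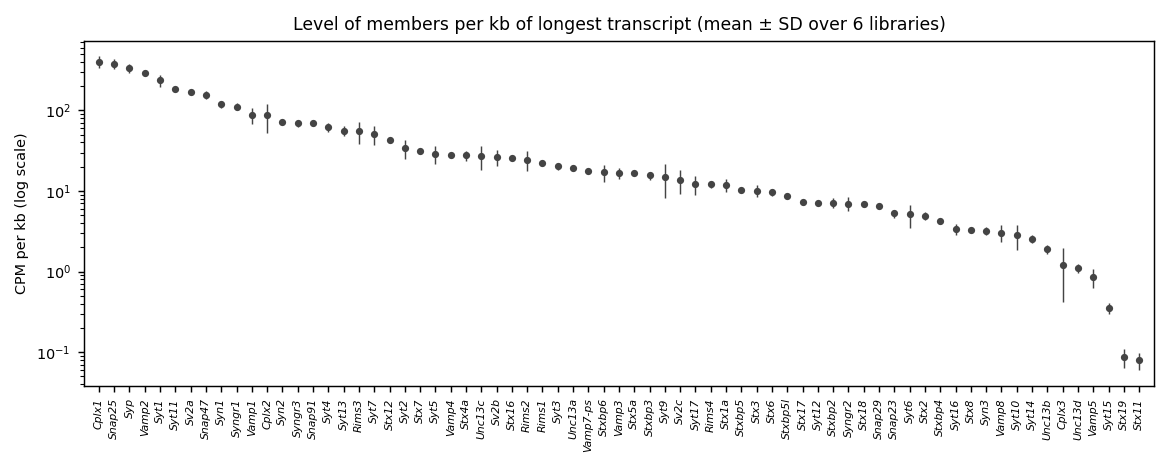
Mean level of 69 of the 71 genes in CPM per kb of its longest transcript on a log axis, with the SD over 6 libraries as bars. Cplx1, Snap25 and Syp lead at 399, 380 and 332 CPM per kb, and Stx19 and Stx11 lie at the bottom.

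Against ad libitum feeding, no gene of the release machinery passed the test under intermittent fasting. All 71 genes passed the filter on low counts, and 0 of 71 were called by edgeR's quasi-likelihood test at an adjusted p below 0.05, where 0.497% of all 19109 tested genes were called. The smallest adjusted p was 0.0698, for Vamp3. Without adjustment, 9 of the 71 had a p below 0.05 and were higher (12.7%, against 8.74% of all genes) and 7 were lower (9.86%, against 11.6%). In 11 of 71 every fasting library lay above every ad libitum library (15.5%, against 12.5% of all genes), and in 8 of 71 every fasting library lay below (11.3%, against 15.0%). With all 6 libraries, these shares lie near those of all genes. They moved when a library was left out. Without ad libitum replicate 1, 18 genes were higher at an unadjusted p below 0.05 (25.4%, against 13.1% of all genes) and 11 lower (15.5%, against 14.3%), and the groups did not overlap in 26 higher genes (36.6%, against 23.1%) and 15 lower genes (21.1%, against 23.5%), so the higher side then lay above the share of all genes. Without ad libitum replicate 2, 5 genes were higher at that p (7.04%, against 8.14%) and 4 lower (5.63%, against 10.4%). Dropping fasting replicate 1 left 1 higher (1.41%, against 4.97%) and 3 lower (4.23%, against 7.81%), and dropping fasting replicate 3 left 3 (4.23%, against 4.95%) and 2 (2.82%, against 8.06%). Dropping fasting replicate 2 left 9 higher (12.7%, against 7.56%) and 4 lower (5.63%, against 9.90%). The groups then did not overlap in 16 higher genes (22.5%, against 18.6%) and 15 lower genes (21.1%, against 20.7%). Dropping ad libitum replicate 3 left 9 higher (12.7%, against 7.47%) and 5 lower (7.04%, against 9.22%). In that case 16 higher genes (22.5%, against 17.2%) and 11 lower genes (15.5%, against 18.8%) did not overlap. The median log2 fold change, given as fasting minus ad libitum throughout, was 0.08 over the 71 genes and -0.005 over all genes tested. Differences ran from -0.62 to 0.74 on the log2 scale, with 4 of 71 beyond 1.5-fold in either direction.

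**Figure D2:**
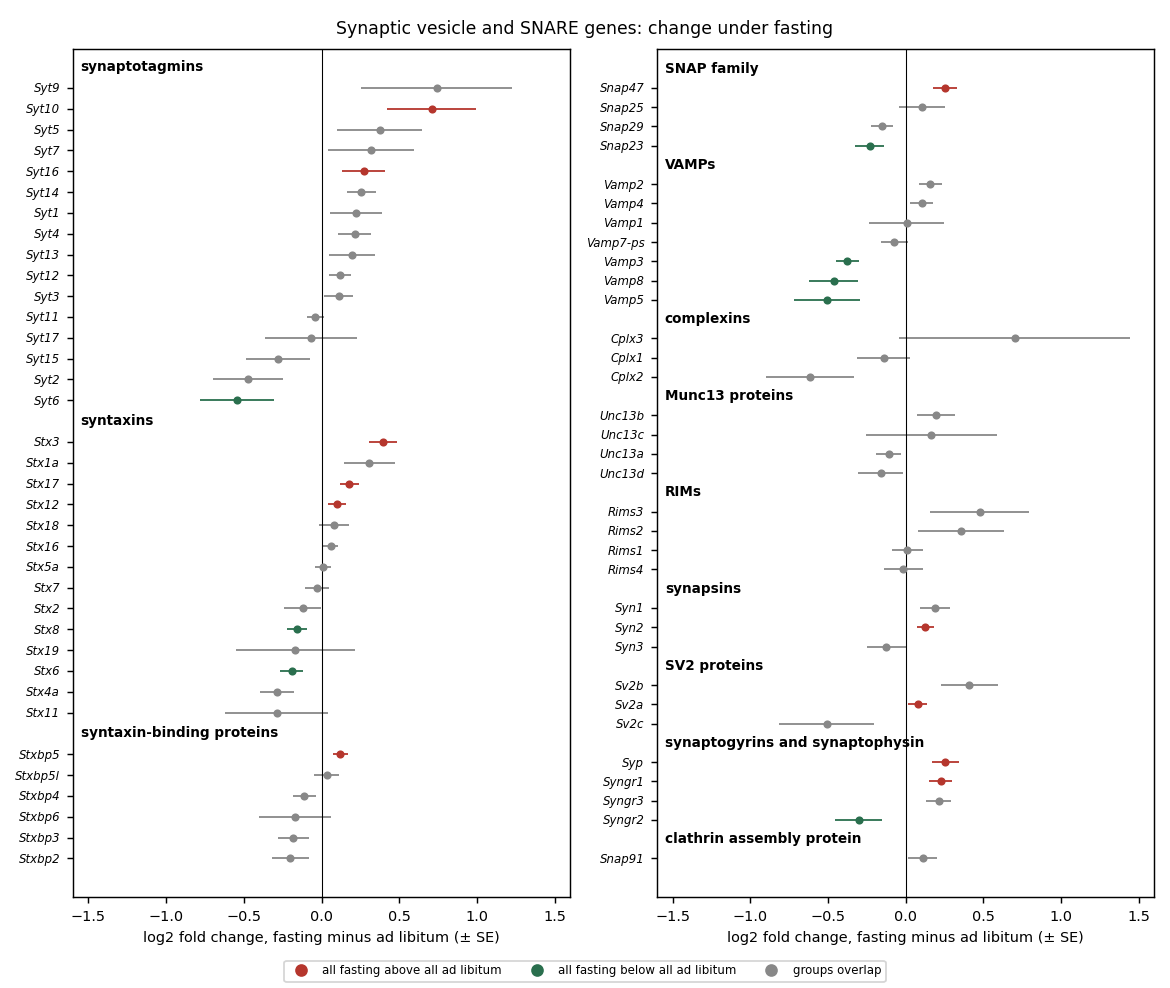
Log2 fold change of 69 of the 71 genes, fasting minus ad libitum, with its SE, grouped by role and coloured by whether the 3 fasting and 3 ad libitum libraries overlap. In 11 genes the fasting libraries lie above, in 8 below, and the widest bars belong to Cplx3, Syt9 and Unc13c.

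The calls depended on the tool and on a library. DESeq2 called 2 of the 71, Stx3 higher and Vamp3 lower, which is 2.82% where it called 7.26% of all genes. Without ad libitum replicate 1, edgeR called 5 of the 71, with Snap47, Sv2b and Syp higher and Vamp3 and Vamp8 lower, which is 7.04% against 6.18% of all genes.

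The smallest p-values belonged to a pair of SNARE genes with opposite signs. Vamp3, which encodes the VAMP protein cellubrevin of recycling endosomes, was at 37.8, 43.7 and 38.4 CPM in ad libitum libraries versus 29.2, 31.8 and 31.3 CPM in fasting libraries. All 3 fasting libraries were lower, and the log2 fold change was -0.38 (SE 0.07, adjusted p = 0.0698 by edgeR). Stx3, a syntaxin of apical membranes, ribbon synapses and dendritic exocytosis, was at 26.1, 24.1 and 30.4 CPM in ad libitum libraries versus 35.6, 34.9 and 35.4 CPM in fasting libraries. Its fasting libraries lay close together and above all ad libitum libraries, with a log2 fold change of 0.39 (SE 0.09, adjusted p = 0.0841 by edgeR).

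The proximal promoters of the genes of smallest p in each direction that have a single entry in the RefSeq promoter table are shown, so that the start regions of genes with opposite signs can be read side by side. Each run holds 250 bases before the start and 50 after it, 5′ to 3′ on the gene's strand, in GRCm38.p6, an older build than the GRCm39 named for the counts. Capitals mark matches on either strand to 4 motifs, the cAMP response element palindrome TGACGTCA, the E-box CACGTG, the GC box GGGCGG and the TATA motif TATAAA. Stx3 (chr19:11819354-11819653, minus strand) and Snap47 (chr11:59449985-59450284, minus strand) had positive log2 fold changes, and Vamp8 (chr6:72390618-72390917, minus strand) and Stx4a (chr7:127841558-127841857, plus strand) negative ones.
Stx3: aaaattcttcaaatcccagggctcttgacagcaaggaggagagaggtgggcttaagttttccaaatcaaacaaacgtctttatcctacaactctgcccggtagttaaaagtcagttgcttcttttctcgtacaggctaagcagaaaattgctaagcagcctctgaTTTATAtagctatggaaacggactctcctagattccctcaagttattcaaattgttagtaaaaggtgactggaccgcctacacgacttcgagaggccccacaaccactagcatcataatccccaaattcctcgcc
Snap47: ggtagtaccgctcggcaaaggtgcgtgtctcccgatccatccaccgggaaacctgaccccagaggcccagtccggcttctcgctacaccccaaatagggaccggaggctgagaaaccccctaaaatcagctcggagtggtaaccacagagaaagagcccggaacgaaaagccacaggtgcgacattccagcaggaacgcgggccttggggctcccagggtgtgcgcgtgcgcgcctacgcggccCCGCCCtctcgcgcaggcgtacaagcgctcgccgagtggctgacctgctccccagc
Vamp8: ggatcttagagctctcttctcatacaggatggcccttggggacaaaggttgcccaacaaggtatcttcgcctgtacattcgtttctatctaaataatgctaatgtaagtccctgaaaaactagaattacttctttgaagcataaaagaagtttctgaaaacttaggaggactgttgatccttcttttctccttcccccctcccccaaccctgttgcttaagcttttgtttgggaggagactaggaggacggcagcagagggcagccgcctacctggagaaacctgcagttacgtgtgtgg
Stx4a: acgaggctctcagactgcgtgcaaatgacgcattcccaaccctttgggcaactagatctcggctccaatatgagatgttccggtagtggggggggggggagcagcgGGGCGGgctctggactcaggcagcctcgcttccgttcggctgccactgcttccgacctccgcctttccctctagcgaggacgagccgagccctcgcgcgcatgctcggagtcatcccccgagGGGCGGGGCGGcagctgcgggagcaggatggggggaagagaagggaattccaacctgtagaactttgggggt

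The genes of like sign did not share a base composition. G and C made up 44% of the Stx3 window and 46.7% of that of Vamp8, against 65% for Snap47 and 64.3% for Stx4a. The Stx3 window held 1 TATA motif and no GC box, Snap47 held 1 GC box, Stx4a held 3, of which 2 overlap, and Vamp8 held none of the 4 motifs. Of the 71 genes, 54 had an entry in the table. Among them 43 held a GC box in at least 1 window (79.6%, against 38.2% of all genes in the table), 8 an E-box (14.8%, against 8.09%), 3 a TATA motif (5.56%, against 15.7%) and 2, Stxbp3 and Syn1, the palindrome (3.70%, against 2.03%). The genes in the table were not limited to those tested here, and a gene with more windows had more chances of a match. A match describes these letters only.

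Among the vesicle membrane proteins of the 71, the neuronal genes Syp, Syngr1 and Syngr3 lay on the higher side. Synpr, a synaptophysin relative outside the 71, had a log2 fold change of -0.15 and its groups overlapped (adjusted p = 0.871 by edgeR). Syp was at 958, 769 and 854 CPM in ad libitum libraries versus 1066, 991 and 1023 CPM in fasting libraries, with a log2 fold change of 0.26 (SE 0.09, adjusted p = 0.174 by edgeR). Syngr1, a synaptogyrin of vesicle membranes, was at 448, 397 and 445 CPM against 532, 476 and 499 CPM (0.22, SE 0.07, adjusted p = 0.161 by edgeR). In both genes the groups did not overlap, and ad libitum replicate 2 was the lowest library. Syngr3, another synaptogyrin of neurons, was at 121, 119 and 141 CPM against 152, 149 and 139 CPM, and its groups overlapped (0.21, adjusted p = 0.205 by edgeR). Syngr2, the synaptogyrin known from tissues outside the brain, was at 10.3, 14.6 and 10.2 CPM against 9.78, 9.73 and 8.98 CPM, lower in every fasting library but by a narrow margin (-0.30, adjusted p = 0.313 by edgeR).

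The SV2 glycoproteins and the synapsins each had members of both signs, with 0 of 6 called. Sv2a was at 735, 676 and 742 CPM in ad libitum libraries versus 753, 772 and 747 CPM in fasting libraries, a small difference of 0.08 on the log2 scale with no overlap. Sv2b was at 159, 102 and 111 CPM against 186, 150 and 157 CPM, a log2 fold change of 0.41 (SE 0.18, adjusted p = 0.283 by edgeR), and ad libitum replicate 1 lay inside the fasting range. Sv2c, the SV2 form that the basal ganglia and dopaminergic neurons carry, was at 109, 144 and 188 CPM against 82.9, 144 and 82.7 CPM (-0.51, SE 0.30, adjusted p = 0.411 by edgeR), and its value was -0.29 with ad libitum replicate 3 left out and -0.83 with fasting replicate 2 left out. Of the synapsins, Syn2 was at 273, 269 and 261 CPM against 293, 301 and 282 CPM (0.13, SE 0.05, adjusted p = 0.257 by edgeR), with no overlap. Syn1 was at 409, 323 and 349 CPM against 437, 391 and 405 CPM, and the scarce Syn3 at 16.6, 16.1 and 15.6 CPM against 12.1, 17.0 and 15.1 CPM. The groups of Syn1 and Syn3 overlapped.

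Of the core SNARE genes of neurons, Snap25, Vamp2, Vamp1 and Stx1a were not called, and in each the groups overlapped. Snap25 was at 2223, 1450 and 1686 CPM in ad libitum libraries versus 1985, 1922 and 1857 CPM in fasting libraries, so that the fasting libraries lay inside the ad libitum range (log2 fold change 0.11, SE 0.15, adjusted p = 0.731 by edgeR). Vamp2 was at 611, 575 and 622 CPM against 723, 616 and 680 CPM (0.16, SE 0.08, adjusted p = 0.294 by edgeR). Vamp1, the vesicle SNARE of fast and motor synapses, was at 671, 362 and 462 CPM against 443, 590 and 469 CPM (0.01, SE 0.24). Its ad libitum libraries spanned 1.85-fold. Stx1a was at 18.1, 25.9 and 25.4 CPM against 32.6, 24.8 and 28.3 CPM (0.31, SE 0.16, adjusted p = 0.352 by edgeR). Among the syntaxin-binding genes, Stxbp5, which encodes the release inhibitor tomosyn, was at 83.0, 86.8 and 89.6 CPM against 93.6, 93.7 and 94.6 CPM, with no overlap (0.12, SE 0.05, adjusted p = 0.238 by edgeR). In all, 3 of 7 syntaxin-binding genes were above 0 and 4 below, and 3 of 7 VAMP genes above and 4 below, the pseudogene Vamp7-ps among the latter (-0.07). Snap91 had a log2 value of 0.11 and overlapped.

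**Figure D3:**
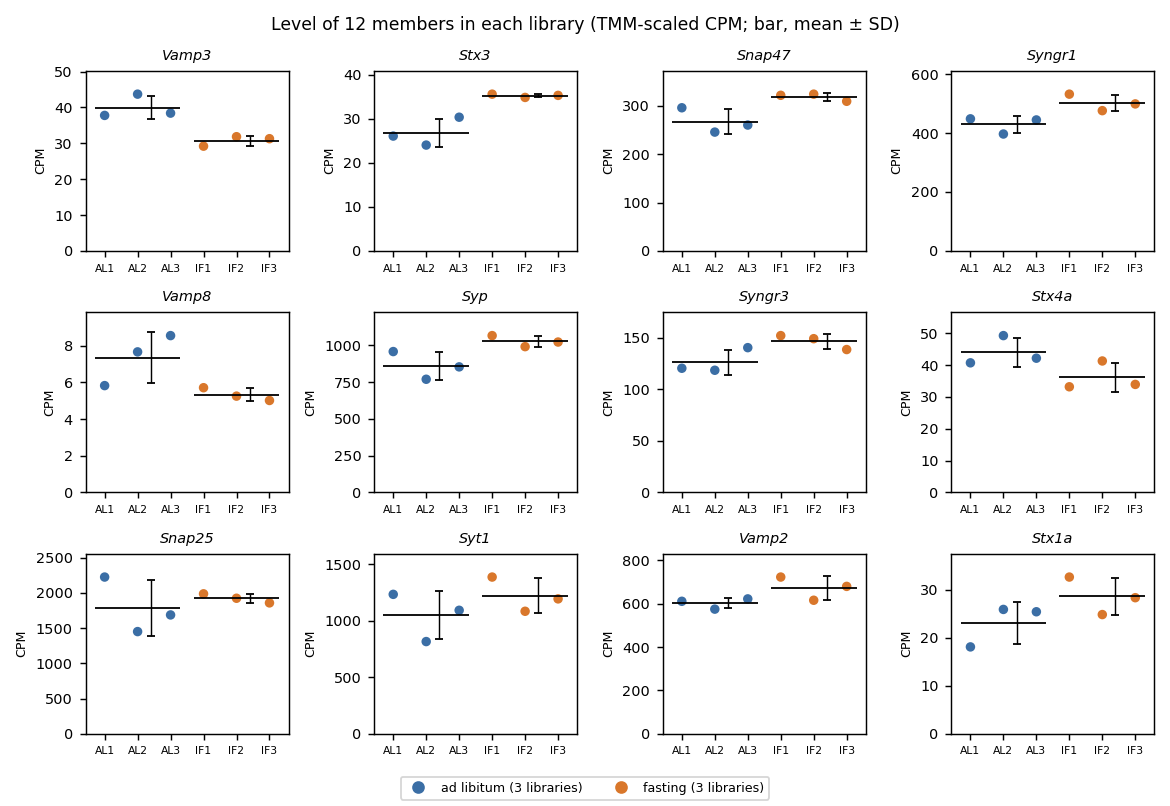
CPM of 12 genes in ad libitum replicates 1 to 3 (AL1 to AL3) and fasting replicates 1 to 3 (IF1 to IF3), each axis starting at 0, with the group mean and SD. Vamp3 and Vamp8 lie lower and Stx3, Snap47, Syngr1 and Syp higher in every fasting library, while Snap25, Syt1, Vamp2 and Stx1a overlap.

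Several SNAREs used outside the synapse lay on the lower side, none of them called. They were named for a small p, as part of a pair, or with their values in view, and not all such genes were lower. Vamp4 (0.10), Stx16 (0.06) and Stx18 (0.08) lay above 0 on the log2 scale, as did Stx12 and Stx17, given below, and Stx7 was at -0.03. Vamp8, a SNARE of lysosomal and secretory granule fusion, was at 5.82, 7.66 and 8.55 CPM in ad libitum libraries versus 5.71, 5.25 and 5.01 CPM in fasting libraries (log2 fold change -0.46, SE 0.16, adjusted p = 0.167 by edgeR). Snap23, the widely expressed relative of Snap25, was at 15.2, 16.7 and 14.6 CPM against 13.8, 11.8 and 13.9 CPM (-0.23, adjusted p = 0.224 by edgeR), and Vamp5 at 2.14, 3.22 and 2.50 CPM against 1.52, 1.92 and 2.09 CPM. These 3 genes did not overlap between groups, although the nearest libraries of Vamp8 and Vamp5 were close. Stx4a, the plasma membrane partner of Snap23, was at 40.7, 49.3 and 42.2 CPM against 33.2, 41.3 and 33.9 CPM and overlapped (-0.29, adjusted p = 0.209 by edgeR). The endosomal syntaxins Stx6 (-0.19) and Stx8 (-0.16) were also lower in every fasting library. The microglial and oligodendrocyte markers given above had the same sign as these genes, with medians on the log2 scale of -0.61 and -0.57, and their part in these values was not tested.

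Other syntaxins and SNAP genes lay above 0, again with 0 called. Snap47, a SNAP relative found on intracellular membranes of neurons, was at 296, 246 and 260 CPM in ad libitum libraries versus 322, 324 and 309 CPM in fasting libraries, with no overlap (0.25, SE 0.08, adjusted p = 0.146 by edgeR). Stx17, the syntaxin that fuses autophagosomes with lysosomes, was at 38.6, 37.3 and 41.1 CPM against 46.2, 42.5 and 43.5 CPM (0.18, SE 0.06, adjusted p = 0.174 by edgeR). Every fasting library exceeded every ad libitum library in both genes, and the same held for the endosomal Stx12 (0.10). Of all 15 syntaxins 8 were above 0 and 7 below, with a median of 0.01.

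The synaptotagmins, calcium sensors and their non-sensing relatives, had 11 of 16 genes above 0 and a median log2 fold change of 0.20, with 0 called. Syt1, the fast sensor of many forebrain synapses, was at 1234, 816 and 1093 CPM in ad libitum libraries versus 1387, 1084 and 1194 CPM in fasting libraries (0.22, SE 0.17, adjusted p = 0.502 by edgeR). Syt2, the fast sensor typical of brainstem and inhibitory fast-spiking neurons, was at 308, 223 and 284 CPM against 153, 260 and 177 CPM (-0.47, SE 0.22, adjusted p = 0.308 by edgeR). Its fasting replicates 1 and 3 lay below every ad libitum library and replicate 2 did not. The 3 largest positive log2 fold changes of all 71 genes, among those of at least 1 CPM, were those of Syt9 (0.74, SE 0.49), Syt10 (0.71, SE 0.29) and Cplx3 (0.70, SE 0.74), none called. All 3 rested in part on single libraries. Syt9 was at 1.30 without ad libitum replicate 1 and at 0.40 without ad libitum replicate 2, and Syt10 at 0.45 without ad libitum replicate 1. Cplx3 was at 1.89, 0.35 and 0.32 without ad libitum replicates 1, 2 and 3 in turn, and at 0.26 without fasting replicate 3. Syt10, a sensor for regulated secretion of growth factor, was at 2.41, 4.13 and 5.36 CPM against 6.62, 5.46 and 7.38 CPM. Syt9 was at 70.7, 21.0 and 37.1 CPM against 92.6, 51.3 and 71.4 CPM, and the diets overlapped. Syt14, a relative that does not bind calcium, was at 19.6, 23.6 and 21.7 CPM against 27.3, 23.4 and 26.6 CPM (0.25, adjusted p = 0.195 by edgeR). Syt6 was at 21.2, 36.7 and 22.4 CPM against 15.3, 19.4 and 20.4 CPM, with no overlap (-0.54, SE 0.24, adjusted p = 0.275 by edgeR), but its value was -0.25 without ad libitum replicate 2. Syt11, which lacks calcium binding, varied little at 930, 966 and 920 CPM against 925, 914 and 900.5 CPM.

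The factors that prime and clamp vesicles had 0 genes with an unadjusted p below 0.05 among 3 complexins, 4 Munc13 genes and 4 RIM genes. Of all genes, 8.74% were higher and 11.6% lower at that p, so a count of 0 in so short a list says little. Cplx1 was at 1130, 708 and 908 CPM in ad libitum libraries versus 819, 907 and 762 CPM in fasting libraries (-0.14, SE 0.17). Cplx2, the complexin of forebrain and excitatory neurons, was at 369, 749 and 428 CPM against 296, 385 and 327 CPM, and its log2 fold change of -0.62 was the most negative with all 6 libraries (SE 0.28, adjusted p = 0.298 by edgeR). Ad libitum replicate 2 stood alone above 428 CPM, and without it the value was -0.25, nearer 0 than the -0.53 of Sv2c. Cplx3 was at 5.53, 1.22 and 1.05 CPM against 3.55, 2.68 and 6.42 CPM. Unc13a, the main Munc13 of glutamatergic release, was at 229, 205 and 187 CPM against 197, 186 and 194 CPM. Rims1 was at 163, 130 and 139 CPM against 159, 134 and 143 CPM (0.01, SE 0.10), and Rims2 at 144, 80.7 and 82.8 CPM against 158, 104 and 132 CPM (0.36, SE 0.28). In each of these 6 genes the diets overlapped.

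Libraries of the same diet also differed, the ad libitum libraries more than the fasting libraries. The SD of log2 CPM was wider ad libitum than under fasting in 59 of 71 genes (83.1%), against 67.4% of all genes tested, with medians of 0.17 and 0.08. Ad libitum replicate 2 was the lowest of all 6 libraries in 30 of 71 genes (42.3%), against 22.6% of all genes, and in 14 of the 21 neuronal release genes chosen as a core (among them Syt1, Syt2, Stx1a, Snap25, Vamp1, Vamp2, the synapsins, the SV2 genes, Rims1, Cplx1, Cplx2, Unc13a, Syngr1, Syngr3 and Syp). The summed CPM of that core was 11860, 9484 and 10505 ad libitum and 11377, 11280 and 10834 under fasting, so 1 ad libitum library was the highest and another the lowest. Without ad libitum replicate 2 the median log2 fold change of the 71 genes was 0.02, and 14 genes lay higher (19.7%, against 17.8% of all genes) and 13 lower (18.3%, against 19.7%) with no overlap.

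Some of the 71 had their highest or lowest library in common with a gene of a neuron type. They and the genes set beside them were picked with the values in view. Sv2c was highest in ad libitum replicate 3 at 188 CPM, and fasting replicate 2, at 144 CPM, was the highest of its group, as for the Slc6a3 levels given above. Of the other dopaminergic markers, Th, Slc18a2, Ddc, Aldh1a1, Pitx3 and En1 also peaked in ad libitum replicate 3. Drd2 peaked in ad libitum replicate 2, and Nr4a2 and Foxa2 in fasting replicate 2. Cplx2 peaked in ad libitum replicate 2, as did Chat and the other cholinergic genes Slc5a7 and Slc18a3. Isl1, listed with them, peaked in fasting replicate 3. Rims3, a short RIM protein that regulates release, was at 427, 183 and 296 CPM in ad libitum libraries versus 495, 363 and 403 CPM in fasting libraries, and the vesicular glutamate transporter gene Slc17a6 was at 357, 184 and 229 CPM against 419, 365 and 340 CPM. Both were lowest in ad libitum replicate 2 and highest in fasting replicate 1. Unc13c, a Munc13 known from cerebellar granule cells, was at 336, 231 and 103 CPM against 242, 229 and 281 CPM, a 3.27-fold range ad libitum, and Slc17a7, the glutamate transporter of cortex and cerebellum, was at 174, 80.9 and 38.4 CPM against 161, 89.7 and 140 CPM. Ad libitum replicate 1 was the highest and replicate 3 the lowest in both. The part of the cells sampled in these values was not tested.

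**Figure D4:**
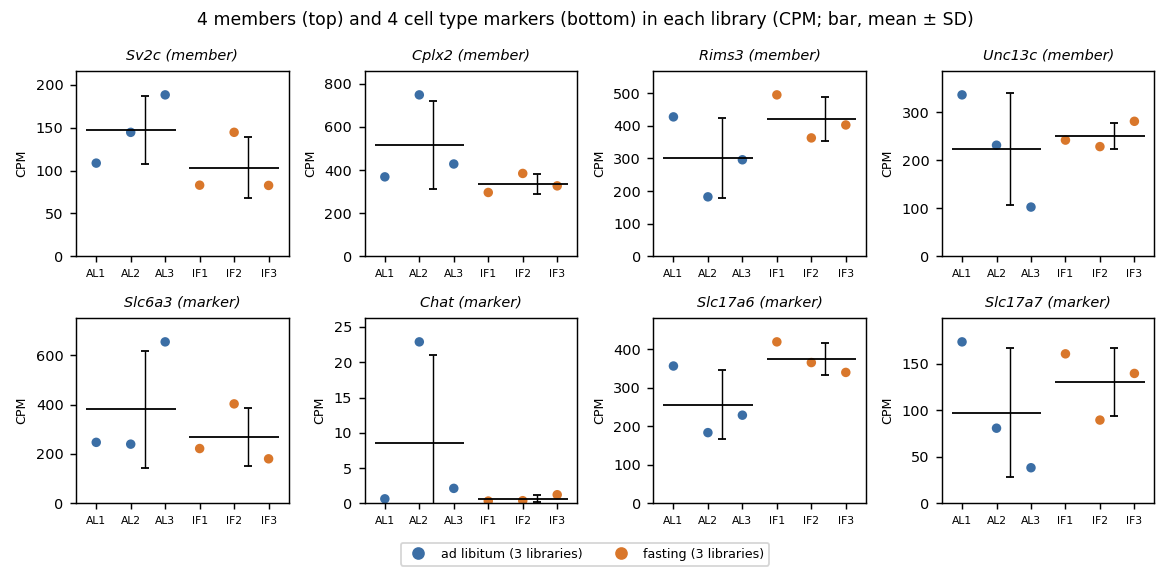
CPM of Sv2c, Cplx2, Rims3 and Unc13c in each library (top) above the neuron type genes Slc6a3, Chat, Slc17a6 and Slc17a7 (bottom), with the group mean and SD (the ad libitum bar of Chat is cut off at 0). Sv2c and Slc6a3 are highest in ad libitum replicate 3, at 188 and 653 CPM, and Cplx2 and Chat in ad libitum replicate 2, at 749 and 22.9 CPM.

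Ratios of related genes within a library do not depend on how libraries are scaled. For 13 pairs, the log2 ratio of counts was compared between diets with a two-sided exact permutation test over the 6 libraries, which cannot give a p below 0.1. Syt2/Syt1 reached that p, and no pair passed after adjustment over the 13 (exact permutation adjusted p = 0.52 for Syt2/Syt1). Syt2 had 0.250, 0.274 and 0.260 counts per count of Syt1 ad libitum, a narrow range, and 0.110, 0.239 and 0.148 under fasting. All fasting ratios were lower, with a log2 difference of -0.73 between means of -1.94 ± 0.07 and -2.67 ± 0.57 (SD, n = 3).

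In each of the pairs that follow the diets overlapped. Vamp1 and Vamp2 were near parity in counts, which are not divided by transcript length. Vamp1 had 1.10, 0.629 and 0.742 counts per count of Vamp2 ad libitum and 0.612, 0.957 and 0.690 under fasting (exact permutation p = 0.6). Per kb of longest transcript, Vamp1 was at 87.5 CPM and Vamp2 at 289 CPM over all 6 libraries. Cplx2 per count of Cplx1 was 0.326, 1.06 and 0.472 ad libitum and 0.362, 0.424 and 0.429 under fasting. Only in ad libitum replicate 2 did Cplx2 have more counts than Cplx1. Per kb of longest transcript, Cplx2 was at 86.4 CPM and Cplx1 at 399 CPM over all 6 libraries. Sv2c per count of Sv2a was 0.148, 0.214 and 0.253 against 0.110, 0.187 and 0.111, a log2 difference of -0.60 (exact permutation p = 0.2). Snap23 stayed at most 0.0115 counts per count of Snap25 in any library. The log2 difference was 0.35 for Sv2b/Sv2a, -0.07 for Syn2/Syn1, -0.33 for Syn3/Syn1, 0.38 for Rims2/Rims1, 0.42 for Unc13c/Unc13a and 0.01 for Syngr1/Syngr3.

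**Figure D5:**
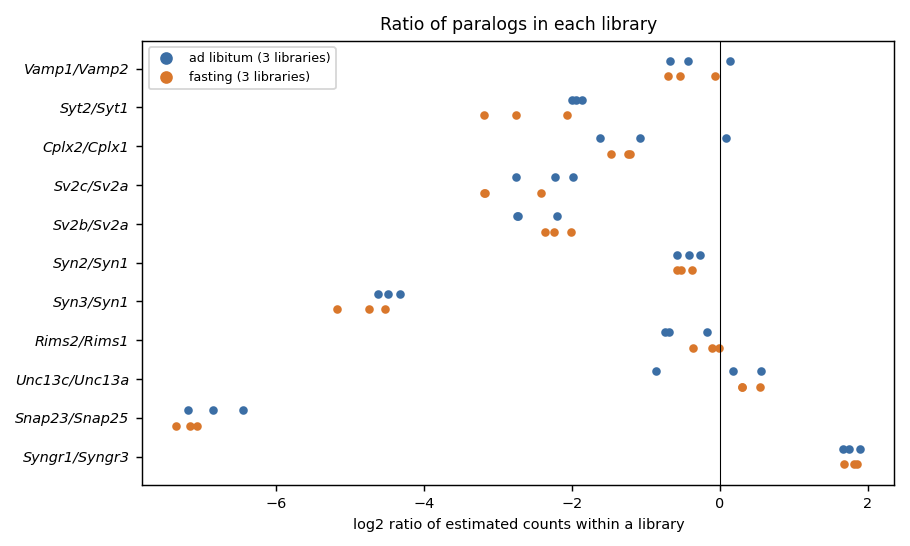
Log2 ratio of estimated counts of paired genes within each library, for 11 of the 13 pairs, with ad libitum libraries above and fasting libraries below each line. In Syt2/Syt1 all fasting ratios lie below all ad libitum ratios, and in the other pairs shown they overlap.

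Genes of the vesicle cycle outside the 71 also had 0 called in edgeR. Of a list of 50 presynaptic genes outside the 71 (SNARE recycling factors, active zone scaffolds, Rab3 proteins, endocytosis proteins and vesicular transporters), 49 were measured. At an unadjusted p below 0.05, 4 were higher (8.16%, against 8.74% of all genes) and 2 lower (4.08%, against 11.6%). The median on the log2 scale was 0.06, with 33 above 0 and 16 below, where 9386 of all 19109 tested genes were above 0. DESeq2 called 3 of the 49, Doc2a, Tspoap1 and Picalm (6.12%, against 7.26% of all genes). Without ad libitum replicate 1, edgeR called 5, Nsf, Ppfia3, Rab3a, Slc17a6 and Tspoap1, all higher (10.2%, against 6.18%). In 10 of 49 every fasting library was higher (20.4%, against 12.5% of all genes) and in 3 lower (6.12%, against 15.0%). The smallest p belonged to Doc2a, a calcium sensor of spontaneous release, at 14.7, 15.0 and 17.8 CPM ad libitum and 20.2, 26.4 and 20.1 CPM under fasting (0.49, SE 0.13, adjusted p = 0.110 by edgeR). Tspoap1, the RIM-binding protein that links RIMs to calcium channels, was at 245, 190 and 179 CPM against 280, 262 and 300.1 CPM (0.46, SE 0.13, adjusted p = 0.118 by edgeR). The liprin gene Ppfia4, of an active zone scaffold, had a log2 fold change of 0.17 (SE 0.05, adjusted p = 0.130 by edgeR), and Picalm, a clathrin adaptor that retrieves VAMP proteins, one of -0.17 (SE 0.05, adjusted p = 0.135 by edgeR). In these 4 genes the groups did not overlap.

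Scaling libraries to the summed counts of the 12 pan-neuronal markers in place of TMM left 4 of the 71 genes higher (5.63%, against 5.39% of all genes) and 4 lower (5.63%, against 11.1%) with no overlap. On that scale Vamp3 had a log2 fold change of -0.43 (adjusted p = 0.241 by edgeR) and Stx3 one of 0.36 (adjusted p = 0.291 by edgeR), and Syt2, at -0.51 with no overlap, had the smallest p of the 71 (adjusted p = 0.233 by edgeR).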

How the data were processed

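The values deposited by the authors are estimated counts, whole numbers without scaling, for each gene in 6 libraries. GRCm39 (mm39), DESeq2 1.40.2 and Salmon are named, per the submitters' processing notes. The role of each, the annotation release and the strand setting were not given in the sources used here. Reads of antisense or overlapping genes may therefore not be separated. The 6 columns were matched to libraries by their labels, and rounding changed 0 values.

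Genes were filtered with filterByExpr (19109 of 19251 kept), scaled by TMM and tested with edgeR 4.0.16 (R 4.3.3), a two-sided robust quasi-likelihood test without covariates on all genes, with Benjamini-Hochberg adjustment. Genes with an adjusted p below 0.05 were called. Residual degrees of freedom were 4. SE is the size of the log2 fold change over the square root of F. CPM are computed from the deposited estimated counts. Alternatives used DESeq2 1.42.0, limma-voom (limma 3.58.1), other scalings and filters, a replicate block, and each library left out in turn. The test was checked on simulated counts.

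The members, lists and pairs were chosen with earlier results of these data known. Named genes were the core, the 10 members of smallest p, the 3 largest changes each way at 1 CPM or more, the paired genes, and 4 presynaptic genes outside the rule. Others were chosen after their values were seen. Transcript lengths and shared sequence came from GENCODE M21 on GRCm38, which is older than the build named for the counts. Coordinates are given only for promoter windows, in GRCm38.p6. The share of sequence found in other genes was at most 11.1% for any member. Within a group, any pair of libraries differed by a chi-square of at least 8.17 per degree of freedom, so none was a copy of another. Each was counted as a sample, though this does not show that they came from separate animals. The values of 2 members, and of the 2 pairs that hold them, are not reported here, though counts and sums include them.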

Additional observations from a re-analysis of the deposited data

How the results depend on the processing

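The count of called members, 0, was 2 with DESeq2 and ranged from 0 to 5 when each library was left out in turn, the 5 without ad libitum replicate 1. Of the presynaptic genes outside the rule, 0 were called, 3 with DESeq2 and 0 to 5 with a library left out, again 5 without ad libitum replicate 1. Both counts were 0 with limma-voom, other scalings, other filters, non-robust shrinkage and the replicate block. Few genes of any kind were called there, from 0.0419% of all genes when scaled to pan-neuronal genes to 1.49% with the block. With fasting replicate 1 or 3 left out, 0 of all genes were called, and without ad libitum replicate 3 only 1. A count of 0 among the members says little in such settings. Under the block 21 members had an unadjusted p below 0.05 in place of 16. Of these, 14 were higher (19.7%, against 9.49% of all genes) and 7 lower (9.86%, against 11.0%). Over all genes the block raised the count of calls from 95 to 285. Same-numbered libraries deviated together at correlations of 0.30, -0.004 and -0.14 for replicates 1, 2 and 3. Pairs of different numbers ran from -0.21 to 0.25. Whether same-numbered libraries share more than a number was not tested. Members with an unadjusted p below 0.05 numbered 8 when scaled to pan-neuronal genes. Of these, 4 were higher (5.63%, against 3.64% of all genes) and 4 lower (5.63%, against 8.47%). Such members numbered 4 without fasting replicate 1 and 5 without fasting replicate 3, with the shares given above. Signs of log2 fold changes near 0 turned. Scaled to pan-neuronal genes, Vamp1 was at -0.011 and Rims1 at -0.016. With a library left out, Snap25 ranged from -0.031 to 0.29, Vamp1 from -0.18 to 0.28, Rims1 from -0.066 to 0.11, Cplx1 from -0.30 to 0.037 and Unc13c from -0.18 to 0.58. The log2 ratio differences ranged from -0.30 to 0.11 for Vamp1/Vamp2, from -0.81 to 0.042 for Cplx2/Cplx1, from -0.15 to 0.0097 for Syn2/Syn1 and from -0.043 to 0.073 for Syngr1/Syngr3. The cause was not tested. With 3 libraries per diet, small differences, and some larger than the spread between libraries, may have gone undetected.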
